A study of Mus musculus with 15 samples.

Results

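The comparison described here set mouse hepatocytes that had spent 24 h as three-dimensional aggregates in a rotating wall vessel against the same kind of cells straight after isolation. Its members were the 3 arrays labelled RWV_24h and the 3 arrays labelled t0 (fresh cells), 6 of the 15 arrays in the series, and the 12423 genes, of 18193 with at least 1 probe set that carried 1 gene symbol, that stood off the background of the arrays. All groups were primary hepatocytes of male C57BL/6 mice, an inbred strain, with no genetic change, added agent or age given in the sources used here. The other groups, used where a result needs them, were aggregates after 4 h (RWV_4h) and dish cultures after 4 h and 24 h (TCD_4h, TCD_24h), 3 arrays each. A rotating wall vessel keeps cells in suspension so that they touch each other and not a surface, while a tissue culture dish makes them spread as a monolayer. The replicates are independent biological ones per the study's design text, and 3 per group limit the precision.

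A hepatocyte in the liver sits between blood and bile, makes most plasma proteins, stores and releases glucose, detoxifies ammonia and foreign compounds, and converts cholesterol to bile acids. These functions are kept up by a network of liver transcription factors and by hormones and contacts that isolation removes. Digestion of the tissue and culture are widely known to set off stress and wound-like programmes and to lower liver functions, and aggregate culture is used to slow that loss. The comparison asked how far aggregates had moved from fresh cells after a day.

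Every value below is a log2 change from the median of the fresh arrays, as deposited, so 1 unit is 2-fold and no value is a level. Levels of different genes therefore cannot be set against each other, nor can the deposited values show whether a hepatocyte marker was present at all. A gene was called when its Benjamini-Hochberg adjusted p in limma was below 0.05 and the change was at least 2-fold, and "higher", "lower", "rose" and "fell" are used of such genes only. Errors after ± are standard errors of the fit, with n = 3 arrays against 3, and over the called genes named below they ran from 0.079 to 1.51 (median 0.34). Called genes printed without an error share that range. It was not taken over genes not called, whose errors can lie outside it. GCRMA gives weak signals a nearly constant floor, and which groups of which genes lie on it cannot be settled without levels. Arrays nearly level with each other can be a sign of it. Examples are Fmo2 (-1.50, -1.51 and -1.50) and Dnase1l3 (-2.01, -2.01 and -2.03) in aggregates and Cyp1a1 (0.07, 0 and -0.0083) in fresh cells. The size of such a change may be set by the floor. Calls that were lost without 1 array, without probe sets of shared sequence or with probe sets averaged per gene are named near the end of the comparison with fresh cells. In such bulk samples, fewer cells of a type and less RNA per cell cannot be told apart.

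The 6 arrays differed in some measures of quality. The background probe sets of the aggregates lay at -0.077 to -0.046, against -0.0099 to 0.021 in fresh cells (exact permutation p = 0.1, two-sided, the smallest that 3 against 3 arrays allow). RNA quality was read from the controls for Actb and Gapdh as the signal at the 3′ end minus that at the 5′ end. For Actb it differed by -0.18 between aggregates and fresh cells (exact p = 0.1), and for Gapdh by -0.03 (exact p = 0.4). The 18 hybridisation control probe sets, whose RNA is added to each sample, had medians of -0.46, -0.70 and -0.73 in aggregates and of 0, -0.13 and 0.18 in fresh cells, with no overlap (exact p = 0.1). The part of these shifts in the results was not tested. The 7 reference genes themselves had a median change of 0.77, and centring the arrays on them moved the median of all genes from 0.013 to -0.691. A change smaller than that shift has no settled direction. "Centred" in parentheses below gives the counts and the median of a gene list with that centring, where a count moved by over 1.5 times or the median turned its sign, as happened in 32 and 13 of the 48 function lists.

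After 24 h in aggregates 2465 genes (19.8%) were higher than in fresh cells, 1474 (11.9%) were lower and 8484 were not called. The counts of gene lists below are to be read beside these shares. The median over all genes tested was 0.013. Changes of more than 8-fold were seen in 337 of the higher and 324 of the lower genes, and of more than 32-fold in 75 and 66. With the arrays centred on the reference genes the split was 1105 higher and 3151 lower.

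In 71.6% of all genes the 3 values of one group lay all above those of the other. The 15 largest rises, among called genes separated in that way, were led by Tmsb10 (12.05 ± 0.34, adjusted p = 2.98e-10), the gene of a small protein that binds actin monomers. Its 3 aggregate arrays read 12.38, 11.28 and 12.56 and its fresh arrays 0.079, -0.012 and 0, so every aggregate array was far above every fresh one. Of its 5 probe sets off the background 3 were called, and without the probe sets whose names mark shared sequence the change was -0.15 and was not called, so the rise is uncertain. Next came the cornified envelope gene Sprr1a (11.25), Anxa2 (11.19) of the membrane-binding annexins (1 of 2 probe sets), the galactose-binding lectin Lgals3 (10.70), the lysosomal glycoprotein Cd68 (8.78), the endotoxin co-receptor Cd14 (8.69) and the serine synthesis enzyme Psat1 (8.53). The carbonyl reductase Cbr3 (8.52), the intermediate filament gene Vim (8.09), pyruvate kinase Pkm (7.89), the zinc finger factor Klf6 (7.67), phosphomannomutase Pmm1 (7.51), the transcription factor Sox4 (7.45) (3 of 6 probe sets), Phgdh (7.41), the enzyme that opens serine synthesis, and Prelid2 (7.34) (1 of 2 probe sets) completed the 15.

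The 15 largest falls were led by Pck1, phosphoenolpyruvate carboxykinase, the control step of glucose production. Its arrays read -10.91, -10.92 and -10.94 in aggregates and 0.84, -0.49 and 0 in fresh cells (-11.04 ± 0.35, adjusted p = 5.5e-10), and 2 of its 3 probe sets were called. The aggregate arrays were nearly level with each other, and none came near a fresh one. Uridine phosphorylase Upp2 (-10.29), the serpin pseudogene Serpina4-ps1 (-8.88), the steroid dehydrogenases Hsd3b5 (-8.77) and Hsd3b2 (-7.61), the bile acid enzymes Cyp7a1 (-8.42) and Akr1d1 (-7.85), and the fatty acid elongase Elovl3 (-8.31) followed. So did Nlrp12 (-8.09), a regulator of inflammation, histidase Hal (-7.93), the DNA replication factor Mcm10 (-7.64) (1 of 2 probe sets, and not called at -1.15 without those of shared sequence), GABA transaminase Abat (-7.39) (1 of 2), the uptake transporter Slco1b2 (-7.30), the mitochondrial carbonic anhydrase Car5a (-7.29) and Nrep (-7.15).

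**Figure D1:**
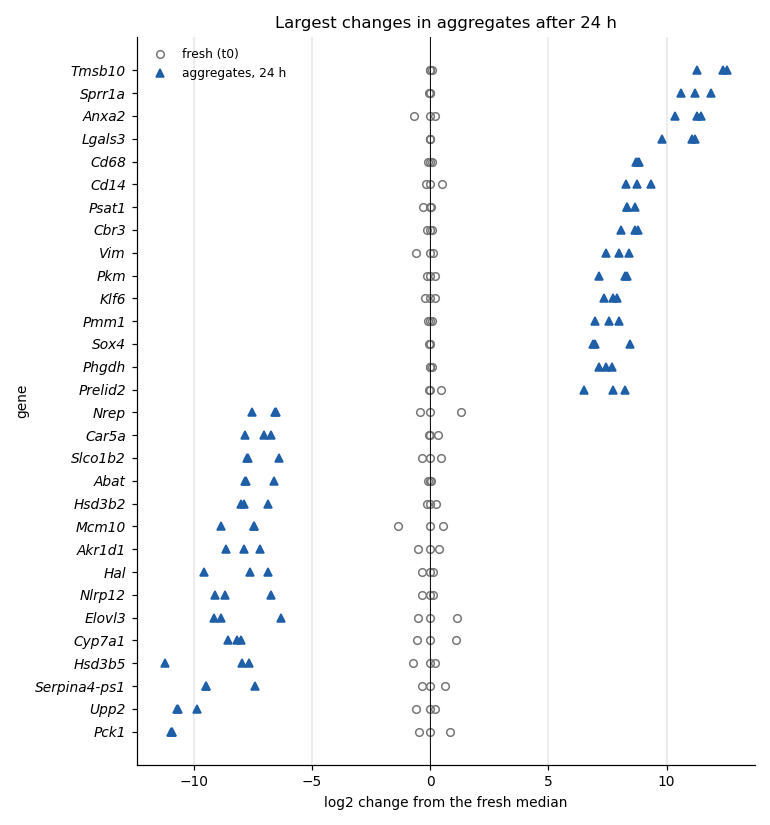
Log2 change from the fresh median (x axis) of the 15 genes with the largest rises and the 15 with the largest falls (y axis), one point per array, with fresh hepatocytes (t0) as circles and aggregates (RWV_24h) as triangles. The fresh arrays lie near 0 and the aggregate arrays lie apart from them in each gene, from Tmsb10 at the top to Pck1 at the bottom.

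Most liver transcription factors were lower. Of 28 measured, 15 were lower and 2 higher, with a median of -1.01 beside 0.013 for all genes. Hnf4a, the nuclear receptor that holds the hepatocyte programme together, read -1.13, -0.81 and -1.04 in aggregates against 0, 0.27 and -0.21 in fresh cells. The groups did not overlap, and the change of Hnf4a (-1.02 ± 0.23, adjusted p = 0.00247) stood at the 2-fold limit. It fell short of 2-fold without aggregate replicate 1 (-0.95), aggregate replicate 3 (-0.99) or fresh replicate 2 (-0.89). Cebpa (-1.97 ± 0.18, adjusted p = 1.77e-06), a leucine zipper factor of liver metabolism, read -2.18, -1.95 and -1.90, all below the fresh values of 0, 0.058 and -0.19. Larger falls were in Nr0b2 (-6.85), the repressor that bile acids induce, in the xenobiotic receptor Nr1i3 (-5.27) and in Klf15 (-5.03), a factor of fasting metabolism. The 2 that rose were Gata6 (1.85) and Atf5 (2.0), while the pioneer factors Foxa1 (-0.56), Foxa2 (-0.40) and Foxa3 (-0.38) were not called.

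All 17 measured genes of bile acid synthesis and conjugation were lower, with a median of -1.80. Cyp7a1, the rate-limiting enzyme, read -8.18, -8.55 and -7.98 in aggregates and 0, 1.11 and -0.56 in fresh cells (-8.42 ± 0.51, adjusted p = 6.15e-08). The fresh arrays differed among themselves by more than 1 unit, and the gap to the aggregates was several times that spread. Akr1d1 and Akr1c6 (-5.42), which act on the sterol ring and its oxidised forms, were next. The mildest falls were in Scp2 (-1.12), Cyp27a1 (-1.26) and Hsd3b7 (-1.28), and with the mean of its probe sets Scp2 was at -0.83 and was not called. Among transporters of bile acids and drugs 12 of 20 were lower and 2 higher (median -2.70). Lower were the uptake carriers Slco1b2, Slco1a4 (-5.27) and Slc10a1 (-4.07), the sterol exporter Abcg5 (-7.01) and the bile salt export pump Abcb11 (-3.78). The 2 that rose were efflux pumps, Abcc4 (4.5) of the blood side and the multidrug pump Abcb1b (1.80), and the canalicular pump Abcc2 (-0.41) was not called.

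Enzymes that oxidise drugs and steroids went the same way, with 1 large exception. Of 33 cytochromes P450 of families 1 to 4, 18 were lower (median -1.60, centred 1 higher, 29 lower, median -2.31), led by Cyp4f15 (-4.46), Cyp2u1 (-4.22) and Cyp4f14 (-3.76). Cyp1a1, the hydroxylase that the aryl hydrocarbon receptor induces, was the only one called higher (6.35 ± 0.42, adjusted p = 1.53e-07). It read 7.71, 5.95 and 5.46 in aggregates and 0.07, 0 and -0.0083 in fresh cells, so all 3 aggregate arrays were high. Its neighbour in the genome Cyp1a2 (-1.28), induced by the same receptor, was lower. Cyp3a11, the main drug-oxidising P450 of mouse liver, read -0.67, -0.65 and -0.52 against -0.049, 0 and 0.073. That difference (-0.62 ± 0.11, adjusted p = 0.000441) was under 2-fold and was not called. Of 23 flavin monooxygenases, carboxylesterases and dehydrogenases 19 were lower and none higher (median -2.63), the largest being Aldh1b1 (-5.65), Aox3 (-5.42) and Fmo5 (-5.21). Of 33 conjugation enzymes 19 were lower and 1 was higher (median -1.54). The sulfotransferases Sult2a8 (-5.18) and Sult1b1 (-4.62) and the glutathione transferase Gstt3 (-4.87) fell most, and the one that rose was another glutathione transferase, Gstm3 (2.75).

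Breakdown of amino acids had the lowest median of the 48 function lists. Of 41 measured genes 39 were lower and none higher, and the median was -3.45. Hal (-7.93 ± 0.53, adjusted p = 1.51e-07) opens the breakdown of histidine, and its arrays read -6.83, -7.61 and -9.55 in aggregates and -0.36, 0 and 0.14 in fresh cells. Tryptophan 2,3-dioxygenase Tdo2 (-6.64) fell as well, as did formamidase Afmid (-5.77) of the same pathway. The Afmid gene overlaps that of Tk1 (-7.01), thymidine kinase, on chromosome 11, so which of them gave the signal of either probe set is uncertain. Only Gcsh (-0.73) and Dao (-0.21) were not called in this list. In the urea cycle and ammonia handling 12 of 13 genes were lower, with a median of -2.34. Cps1, which fixes ammonia in the mitochondrion, read -3.46, -4.66 and -5.33, all below the fresh values of 0, 0.014 and -0.091, and its 3 aggregate arrays lay further apart than its fresh ones. The cycle's other enzymes were Otc (-3.32), Ass1 (-1.61), Asl (-2.25) and Arg1 (-2.91). Of their partners, Car5a supplies bicarbonate, Slc25a15 (-3.03) and Slc25a13 (-2.34) carry ornithine and aspartate, and Slc38a3 (-3.20) carries glutamine. Glul (-1.22) joins ammonia to glutamate to make glutamine, Glud1 (-1.0) releases ammonia from glutamate, and Rhbg (-1.15) is an ammonia channel. The activator enzyme Nags (-0.99), at 0.00471 adjusted p, was just under the 2-fold limit and was not called.

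Glucose genes split by role. Of 14 genes of gluconeogenesis and fructose entry 8 were lower and 2 higher (median -1.02, centred 1 higher, 9 lower, median -1.73). Besides Pck1, G6pc (-4.10) (glucose-6-phosphatase), the coactivator Ppargc1a (-3.68), the glucose transporter Slc2a2 (-1.76), Fbp1 (-1.32), Slc37a4 (-1.29), Pcx (-1.04) and Foxo1 (-1.01) fell. The mitochondrial carboxykinase Pck2 (2.18) and triokinase Tkfc (1.42) rose, and Gckr (-0.50), Crebl2 (0.20), G6pc3 (0.52) and Khk (0.77) were not called. The promoter of Pck1 is shown because the gene fell most of all 12423. In RefSeq on GRCm38.p6 it lies on the plus strand at chr2:173152823-173153122, from 250 bases before to 50 bases after the start of transcription, and the capitals mark a match to TNACGTCA, the core of a cAMP response element, 93 bases before the start.
Pck1: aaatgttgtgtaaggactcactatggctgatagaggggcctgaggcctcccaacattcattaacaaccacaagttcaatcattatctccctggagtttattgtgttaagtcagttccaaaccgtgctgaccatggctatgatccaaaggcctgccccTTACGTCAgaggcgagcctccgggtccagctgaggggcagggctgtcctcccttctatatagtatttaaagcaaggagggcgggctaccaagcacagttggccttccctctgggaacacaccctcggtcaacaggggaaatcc
These letters, on either strand, occur in windows of 3.36% of 27025 genes. A match in a window is a description of its letters and does not show binding.

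In glycogen metabolism 5 genes were higher and 5 lower of 17 (median -0.065, centred 3 higher, 6 lower, median -0.77). The scaffold Ppp1r3c (-6.78), which brings phosphatase to glycogen, fell most, before the liver synthase Gys2 (-1.63) and Ppp1r3b (-1.5). The rises were led by the brain-type phosphorylase Pygb (3.52), Pgm2 (3.19) and the branching enzyme Gbe1 (2.03), while the liver phosphorylase Pygl (-0.31) was not called.

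Genes that burn fat were mostly lower and those that make it went both ways. Of 31 genes of fatty acid oxidation and ketone bodies 27 were lower (median -1.78), with Acot1 (-5.41), the ketone enzyme Bdh1 (-4.41) and the carnitine transferase Cpt1a (-3.25) at the head. Only Fgf21, a hormone rather than an enzyme, was higher. Of 25 lipogenic genes 5 were higher and 6 lower (median -0.032, centred 4 higher, 10 lower, median -0.74). That was 20% and 24%, beside 19.8% and 11.9% of all genes, so the higher share was near that of all genes. The desaturases Scd2 (4.00) and Scd1 (2.57) and the citrate-cleaving enzyme Acly (2.0) rose, each in part of their probe sets. Thrsp (-3.04), Lpin1 (-2.50) and Srebf1 (-1.65) fell, and fatty acid synthase Fasn (-0.032) was not called. In cholesterol synthesis and uptake 7 of 20 were lower, led by Sc5d (-2.59), Lss (-2.34) and Ebp (-1.74), and the regulator Srebf2 (1.39) was higher (median -0.61, centred 0 higher, 11 lower, median -1.32). Lipid droplet proteins went both ways, 7 higher and 6 lower of 18 (median -0.18). The fatty acid carrier Fabp4 (6.41), Cidec (3.84) and Hilpda (3.62) rose, and Ces1d (-4.19), the lipase Mgll (-2.21) and Fitm1 (-2.11) fell.

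Albumin, the main plasma protein, read -0.19, -0.18 and -0.08 in aggregates and 0, 0.045 and -0.024 in fresh cells. The change of Alb (-0.16 ± 0.075, adjusted p = 0.103) was not called; whether the signal of Alb was at the ceiling of the arrays cannot be read from the values. Of 29 plasma carriers and hormones 13 were lower and 1 higher (median -0.78, centred 1 higher, 20 lower, median -1.48). The growth factor carrier Igfals (-4.04), the cortisol carrier Serpina6 (-4.03) and the iron hormone Hamp (-3.73) fell, and thyroxine-binding globulin Serpina7 (5.23) rose. Apolipoproteins and assembly genes counted 10 lower and 1 higher of 20 (median -1.05, centred 1 higher, 17 lower, median -1.76). Here Apoa5 (-3.55), Apon (-2.84) and Angptl4 (-2.47) fell most and Apoa4 (2.80) rose. Coagulation and fibrinolysis counted 12 lower and 2 higher of 26 (median -0.65, centred 0 higher, 19 lower, median -1.35). Prekallikrein Klkb1 (-5.48), heparin cofactor Serpind1 (-4.44) and Proz (-3.24) fell, tissue factor F3 (1.78) and the urokinase receptor Plaur (1.19) rose, and the fibrinogen chains Fga (-0.29), Fgb (-0.23) and Fgg (-0.32) were not called. Of 21 complement genes 11 were lower and none higher (median -1.34, centred 0 higher, 20 lower, median -2.04), with Mbl1 (-2.78), Masp2 (-2.77) and C8a (-2.02) at the head. Masp1, counted among them, is uncertain because its probe sets were called in opposite directions, and their mean was 0.43.

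Acute phase genes, which the liver switches on in inflammation, counted 8 higher and 5 lower of 26 (median -0.047, centred 5 higher, 8 lower, median -0.75). Beside Cd14, Lcn2 (3.24) and Saa2 (2.81) rose. Socs3 (-7.12), the brake on interleukin-6 signalling, fell with Saa4 (-6.85) and Hamp. Its arrays read -8.11, -7.97 and -6.31 in aggregates and 0.49, -1.52 and 0 in fresh cells, so the groups were far apart although both spread by more than 1 unit.

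Genes of both zones of the lobule fell. Of 19 pericentral genes 13 were lower and none higher (median -1.28), with the glutamate carrier Slc1a2 (-7.03), Oat (-4.66) and Notum (-3.66) first. Of 19 periportal genes 15 were lower and 2 higher (median -2.25, centred 1 higher, 15 lower, median -2.96). Pck1, Hal and Aldh1b1 head that list, which shares genes with those above. The 2 that rose were Sox9 (2.80), a factor of bile duct cells (1 of 2 probe sets), and the cadherin Cdh1 (1.07).

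**Figure D2:**
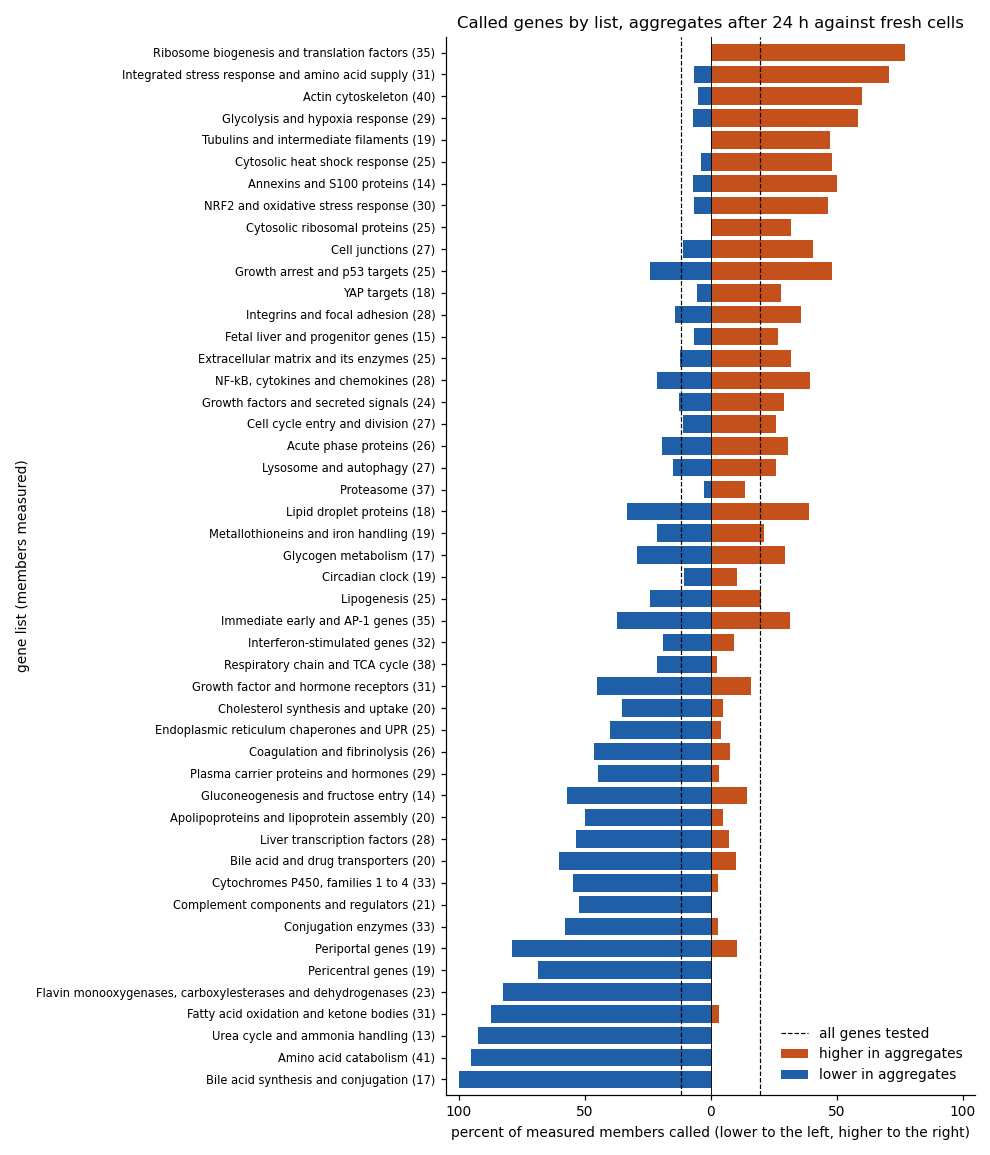
Percent of the measured members of each gene list that were called higher (bars to the right) or lower (bars to the left) in aggregates after 24 h than in fresh cells, with the number measured after each name. The dashed lines mark all 12423 genes, 19.8% higher and 11.9% lower, and enzymes of liver metabolism reach left while stress, translation and cytoskeleton genes reach right. Centred on the reference genes, a count moved by over 1.5 times in 32 lists and the median turned its sign in 13.

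The highest median of the 48 function lists was that of the integrated stress response with the genes of amino acid supply. When amino acids run short or the endoplasmic reticulum is overloaded, cells phosphorylate a translation factor, and the factor Atf4 then switches on genes that make and import amino acids. Of 31 measured genes 22 were higher and 2 lower, with a median of 2.79. Psat1 (8.53 ± 0.25, adjusted p = 3.28e-10), the second enzyme of serine synthesis, read 8.67, 8.32 and 8.34 in aggregates and -0.29, 0 and 0.043 in fresh cells. Phgdh (7.41 ± 0.76, adjusted p = 5.64e-06), the first enzyme, read 7.71, 7.43 and 7.16 against -0.0033, 0 and 0.067. In both genes the 3 aggregate arrays lay close together and far above every fresh array. Aldh18a1 (7.01) opens proline synthesis, Mthfd2 (5.84) belongs to mitochondrial folate metabolism, and Asns (2.64) makes asparagine. The importers Slc7a11 (4.66) (cystine), Slc1a4 (4.33), Slc3a2 (3.69) and Slc7a1 (3.66) rose as well. So did the regulators Atf4 (1.5), Ddit3 (2.86), Trib3 (4.66), Nupr1 (5.43) and Sesn2 (2.79). Atf4 was not called with the arrays centred on the reference genes. Cth (-3.39), which splits cystathionine, and the importer Slc38a2 (-1.26) were the 2 that fell.

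Fgf21, a hormone that hepatocytes release in fasting and under stress, read 5.58, 6.76 and 5.17 in aggregates and -0.0087, 0 and 0.015 in fresh cells (5.83 ± 0.61, adjusted p = 6.83e-06). Dish cultures after 24 h stood at 0.038 from the same fresh arrays, and the aggregates were above them by 5.80 ± 0.61 (adjusted p = 6.57e-05). Every other gene of the list named so far, except Nupr1, showed no called difference between the vessels at 24 h.

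The promoters of 3 of these genes are shown because they hold the sequence to which Atf4 and its partners are known to bind. TGATGNAA, on either strand, lay in the 300-base window of 9 of the 26 list members with a window (34.6%), against 4.51% of 27025 genes. Besides the 3 shown these were Trib3, Nupr1 and Slc1a4, which rose, and Atf3, Chac1 and Vldlr, which were not called. Psat1, Phgdh and Mthfd2 had no match in their windows. Members were listed by function, so the share with a match describes the list and not the changes on the arrays. The windows are from RefSeq on GRCm38.p6, 250 bases before to 50 after the start, with the match in capitals. They lie at chr6:7693160-7693459 (Asns), chr7:45615441-45615740 (Fgf21) and chr3:50443564-50443863 (Slc7a11), all on the minus strand. The match begins 23 bases before the start in Asns and 139 in Fgf21, and the 2 matches of Slc7a11 begin 66 and 47 bases before it.
Asns: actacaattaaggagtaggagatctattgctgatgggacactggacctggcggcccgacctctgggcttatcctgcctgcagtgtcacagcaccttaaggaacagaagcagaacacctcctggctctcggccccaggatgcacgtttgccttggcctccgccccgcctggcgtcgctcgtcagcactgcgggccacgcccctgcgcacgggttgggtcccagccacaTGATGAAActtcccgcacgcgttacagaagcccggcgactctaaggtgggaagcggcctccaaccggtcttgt
Fgf21: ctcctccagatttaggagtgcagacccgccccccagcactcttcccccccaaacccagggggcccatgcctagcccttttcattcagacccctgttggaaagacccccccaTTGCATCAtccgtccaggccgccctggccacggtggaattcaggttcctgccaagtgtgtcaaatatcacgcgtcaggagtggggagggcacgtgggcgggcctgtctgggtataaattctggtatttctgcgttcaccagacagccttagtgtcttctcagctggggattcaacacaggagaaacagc
Slc7a11: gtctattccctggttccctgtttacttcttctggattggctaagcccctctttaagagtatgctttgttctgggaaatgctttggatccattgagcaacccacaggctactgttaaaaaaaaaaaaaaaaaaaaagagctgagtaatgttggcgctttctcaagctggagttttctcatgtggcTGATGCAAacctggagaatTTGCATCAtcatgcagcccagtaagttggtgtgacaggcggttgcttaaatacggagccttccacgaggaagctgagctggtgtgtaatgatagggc
Read against the arrays, Asns (2.64 ± 0.34, adjusted p = 3.76e-05) was the smallest of the 3 changes, with aggregates at 3.26, 2.73 and 2.45 and fresh cells at 0.94, 0 and -0.42. Slc7a11 read 4.56, 5.12 and 4.30 in aggregates and 0, -0.016 and 0.016 in fresh cells.

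Genes of the oxidative stress response followed in part. The factor NRF2, which oxidants and electrophiles free from its inhibitor, is known to drive them. Of 30 measured, 14 were higher and 2 lower (median 0.70, centred 12 higher, 7 lower, median -0.0061). Cbr3 read 8.08, 8.80 and 8.65 in aggregates and 0, 0.092 and -0.13 in fresh cells (8.52 ± 0.54, adjusted p = 9.57e-08). Pgd (4.80) feeds NADPH, sulfiredoxin Srxn1 (4.78) repairs oxidised peroxiredoxins, thioredoxin reductase Txnrd1 (3.17) keeps thioredoxin reduced, and haem oxygenase Hmox1 (4.17) rose too. Sod2 (-2.11) and Gclm (-1.36) fell. Nqo1 (1.81), a common readout of NRF2, rose by less.
The sequence TGACNNNGC, the core of an antioxidant response element, lay in the windows of 9 of 26 list members (34.6%), against 14% of all genes. They were Srxn1, Txnrd1, Pgd, Me1 and Abcc4, which rose, Gclm, which fell, and Mafg, Nfe2l2 and Sod1, which were not called. The share of 34.6% again describes a list drawn up by function and not the changes on the arrays. The windows of Srxn1 (chr2:152105274-152105573) and Txnrd1 (chr10:82858956-82859255), both on the plus strand of GRCm38.p6, are shown for 2 of the risers with a match, in capitals. The match begins 28 bases after the start of transcription in Srxn1 and 92 bases before it in Txnrd1. Txnrd1 has 3 windows, and the one with the most matches is shown.
Srxn1: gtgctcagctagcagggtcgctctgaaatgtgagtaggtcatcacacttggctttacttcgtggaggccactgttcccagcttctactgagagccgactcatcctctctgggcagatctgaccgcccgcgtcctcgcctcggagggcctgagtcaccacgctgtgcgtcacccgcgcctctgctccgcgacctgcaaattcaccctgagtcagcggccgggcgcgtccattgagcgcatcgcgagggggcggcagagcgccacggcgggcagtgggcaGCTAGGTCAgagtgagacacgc
Txnrd1: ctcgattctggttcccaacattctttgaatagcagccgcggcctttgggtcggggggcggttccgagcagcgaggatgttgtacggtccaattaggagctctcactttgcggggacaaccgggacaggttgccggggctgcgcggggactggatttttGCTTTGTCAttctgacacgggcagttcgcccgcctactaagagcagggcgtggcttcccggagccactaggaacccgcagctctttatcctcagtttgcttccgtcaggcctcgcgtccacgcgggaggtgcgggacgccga
Srxn1 read 5.04, 4.40 and 4.42 in aggregates against -0.58, 0.085 and 0, and Txnrd1 read 3.17, 2.81 and 3.05 against 0, 0.0045 and -0.49, with no overlap in either.

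Chaperones are grouped here by compartment. Of 25 cytosolic heat shock genes 12 were higher and 1 lower (median 1.17, centred 4 higher, 2 lower, median 0.47), led by Hspa1a (5.67), Hspb1 (3.80) and Hspa4l (2.69), with Dnaja1 (-1.37) lower. Of 25 chaperones and sensors of the endoplasmic reticulum 10 were lower and 1 higher (median -1.09, centred 0 higher, 20 lower, median -1.79). Herpud1 (-3.71), Sdf2l1 (-2.70) and Dnajc3 (-1.84) fell, the kinase Eif2ak3 (1.14) rose in 1 of 3 probe sets, and the main chaperone Hspa5 (-0.056) was not called. Among metallothioneins and iron genes 4 were higher and 4 lower of 19 (median -0.24, centred 2 higher, 9 lower, median -0.94). Lcn2, the iron importer Slc11a2 (1.81) and the zinc exporter Slc30a1 (1.60) rose, Hamp, Tfr2 (-1.19) and Ireb2 (-1.08) fell, and Mt1 is uncertain because its probe sets were called in opposite directions.

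Of 29 genes of glycolysis and the hypoxia response 17 were higher and 2 lower (median 1.10). The muscle-type pyruvate kinase Pkm, which adult hepatocytes replace by a liver form, read 8.26, 7.14 and 8.32 in aggregates and -0.13, 0.19 and 0 in fresh cells (7.89 ± 0.30, adjusted p = 2.09e-09). Adm (7.13), a vessel-dilating peptide, and Ndrg1 (7.06) came next, but their fresh arrays were spread: Adm read 2.40, -2.0 and 0 and Ndrg1 -0.0093, 0 and 4.26 there. Without fresh replicate 3 the change of Ndrg1 was 8.48. The fall of Higd1a (-1.71) and Aldoc (-1.61) went against the group, and lactate dehydrogenase Ldha (0.34) was not called. Of 38 genes of the respiratory chain and the tricarboxylic acid cycle 8 were lower and 1 higher (median -0.64, centred 0 higher, 33 lower, median -1.34). Idh2 (-1.90), Idh3a (-1.80) and Suclg2 (-1.25) fell, and citrate synthase Cs (1.52) rose in 1 of 3 probe sets.

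Genes of the cell skeleton were more often higher than lower. Of 40 actin cytoskeleton genes 24 were higher and 2 lower (median 1.18, centred 13 higher, 2 lower, median 0.47), beside the difference of -0.18 in the end-to-end control of Actb. Beside Tmsb10, uncertain as said, the actin bundler Tagln2 (7.06) and the adaptor Pdlim7 (5.92) rose, and Tagln (-1.0) and Rdx (-1.0) fell by just 2-fold. Actb itself read 0.78, 0.73 and 0.85 in aggregates and 0, 0.37 and -0.044 in fresh cells, and its change of 0.68 was not called. Of 19 tubulins and intermediate filaments 9 were higher and none lower (median 2.15, centred 9 higher, 1 lower, median 1.45). Vim, a filament gene of mesenchymal cells, read 8.41, 7.42 and 7.99 in aggregates and 0, -0.60 and 0.14 in fresh cells (8.09 ± 0.57, adjusted p = 2.47e-07). The tubulins Tubb6 (6.03) and Tubb2b (4.55) rose too. Desmin, a stellate cell filament, was at -0.062 and was not called. Annexins and S100 proteins counted 7 higher and 1 lower of 14 (median 0.85, centred 6 higher, 3 lower, median 0.15). Anxa2, S100a6 (6.61), Anxa3 (5.65), S100a10 (3.90), Anxa5 (3.36), Anxa7 (1.99) and Anxa4 (1.37) rose and S100a1 (-1.24) fell. Anxa1 (0.076), Anxa6 (-0.36), S100a4 (0.021), S100a13 (-0.41), S100a16 (0.33) and S100g (0.07) were not called.

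Adhesion genes went both ways. Of 28 integrin and focal adhesion genes 10 were higher and 4 lower (median 0.58, centred 8 higher, 5 lower, median -0.12). That was 35.7% and 14.3%, beside 19.8% and 11.9% of all genes, so the lower share was near that of all genes. The laminin receptor Itga6 (5.62), Cav2 (4.77) and Lims1 (4.30) rose, and Parva (-2.11), Itga1 (-1.41) and Tns1 (-1.23) fell. Parva is uncertain, since without probe sets of shared sequence its change was 0.82. Junction genes counted 11 higher and 3 lower of 27 (median 0.65, centred 5 higher, 6 lower, median -0.058). The claudin Cldn4 (5.36), desmoglein Dsg2 (3.78) and desmoplakin Dsp (2.07) rose, and Ceacam1 (-2.95), Cldn1 (-1.61) and the gap junction gene Gjb1 (-1.41) fell. Of 25 matrix genes 8 were higher and 3 lower (median 0.29, centred 5 higher, 4 lower, median -0.42), with Nid1 (7.06), Adamts1 (4.64) and P4ha2 (4.29) up and Lama3 (-4.00), Col18a1 (-2.09) and Tgfbi (-1.5) down. Targets of YAP, which spreading cells activate, counted 5 higher and 1 lower of 18 (median 0.34, centred 3 higher, 3 lower, median -0.36). Their shares were 27.8% and 5.56%, beside 19.8% and 11.9% of all genes. Ptpn14 (6.03), Ajuba (4.17) and Ccn2 (3.03) rose and Gadd45b (-2.38) fell, while the classic target Ankrd1 (-0.027) was not called.

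Ribosome biogenesis and translation factors had the largest share of higher genes among the 48 function lists. Of 35 genes 27 were higher and none lower, with a median of 1.5. The helicase Ddx21 (2.96), the cap-binding factor Eif4e (2.89) (2 of 4 probe sets) and Gar1 (2.86) of the modifying particles led them. With reference-gene centring 16 were higher and 1 lower. Of 25 ribosomal protein genes 8 were higher and none lower (median 0.77, centred 4 higher, 0 lower, median 0.069). The first of them, Rpl12 (5.94), Rps24 (4.49) (1 of 6 probe sets) and Rps9 (2.83), belong to a family whose genes share sequence with many copies. Their calls remained without probe sets of shared sequence, and with probe sets averaged per gene they were 5.94, 1.20 and 1.41. Proteasome genes counted 5 higher and 1 lower of 37 (median 0.58, centred 2 higher, 3 lower, median -0.12), with Psmd8 (1.91), Psmd11 (1.82) and Psmb5 (1.15) up and the immune subunit Psmb9 (-2.05) down. Of 27 lysosome and autophagy genes 7 were higher and 4 lower (median 0.56, centred 3 higher, 7 lower, median -0.15). Their shares of 25.9% and 14.8% were near the 19.8% and 11.9% of all genes. Gpnmb (5.84), the autophagy receptor Sqstm1 (4.29) and Gla (3.73) rose, and Map1lc3b (-3.24), Ctsc (-1.92) and Ctsh (-1.81) fell.

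Immediate early genes were divided. Of 35 genes 11 were higher and 13 lower (median 0.058, centred 10 higher, 13 lower, median -0.65). Klf6, Ier3 (5.91) and Klf4 (4.53) rose, while Nr4a1 (-4.40), Zfp36 (-4.22) and Fosb (-3.71) fell, as did Fos (-3.70) and Egr1 (-3.14). Genes of NF-kB and chemokines counted 11 higher and 6 lower of 28 (median 0.37, centred 8 higher, 8 lower, median -0.33). The receptor Tnfrsf12a (6.54), Cxcl16 (4.37) and Cxcl9 (3.54) rose, and the chemokines Cxcl12 (-6.24), Ccl9 (-3.97) and Cxcl1 (-3.92) fell. Interferon-stimulated genes counted 3 higher and 6 lower of 32 (median -0.35, centred 1 higher, 16 lower, median -1.05), led by Gbp2 (3.12), Irf3 (1.51) and Oasl1 (1.51) above and Ifit1 (-3.16), Ifit3 (-2.27) and Psmb9 below.

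Growth arrest and p53 targets counted 12 higher and 6 lower of 25 (median 0.55, centred 10 higher, 7 lower, median -0.15). Cdkn1a, the inhibitor of cyclin-dependent kinases, read 8.85, 8.40 and 8.80 in aggregates, while its fresh arrays read -1.01, 5.33 and 0. Replicate 2 of the fresh cells was thus far above the others, and still below every aggregate array (7.24 ± 1.15, adjusted p = 0.0002). Without it the change was 9.19. Phlda3 (6.09) and Zmat3 (3.75) rose as well, and Gadd45g (-5.69), Gadd45b and Fas (-1.61) fell. Genes of cell cycle entry counted 7 higher and 3 lower of 27 (median 0.46, centred 5 higher, 8 lower, median -0.25). These shares, 25.9% and 11.1%, were near the 19.8% and 11.9% of all genes. The replication licensing genes Mcm6 (3.53), Mcm3 (3.31) and Mcm2 (2.30) rose, and Tk1, cyclin Ccnd1 (-4.81) and Cdc20 (-2.75) fell. Genes of mitosis such as Top2a (-0.02) and Ccnb2 (-0.26) were not called.

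Receptors fell more often than they rose. Of 31 receptors for growth factors and hormones 14 were lower and 5 higher (median -0.61, centred 1 higher, 19 lower, median -1.32). The adrenergic receptor Adra1b (-3.50), Fgfr2 (-3.45) and Egfr (-3.43) fell. Lepr, the leptin receptor, read 3.24, 4.53 and 5.14 in aggregates and 0, -0.0036 and 0.02 in fresh cells, and Il6st (1.51) and Tgfbr2 (1.49) rose less. Secreted signals counted 7 higher and 3 lower of 24 (median 0.12, centred 5 higher, 5 lower, median -0.58). Fgf21, Btc (4.34) and Pdgfa (3.41) rose, and Inhbc (-3.54), Igf1 (-3.13) and Bmp4 (-1.04) fell. Fetal and progenitor genes counted 4 higher and 1 lower of 15 (median 0.22, centred 4 higher, 2 lower, median -0.49). Their shares were 26.7% and 6.67%, beside 19.8% and 11.9% of all genes. Sox4, Ly6d (6.22) and alpha-fetoprotein Afp (3.22) rose, Lgr5 (-1.60) fell, and Krt19 (-0.07), Epcam (0.22) and Gpc3 (0.0071) were not called.

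In clock genes the fresh arrays disagreed with each other. Of 19 only 2 were higher and 2 lower (median -0.17, centred 1 higher, 7 lower, median -0.88), the kinases Csnk1e (2.38) and Csnk1d (1.22), and Hlf (-2.14) and Clock (-1.15). Dbp, an output gene of the clock, read 0.78, -4.31 and 0 in the 3 fresh arrays and -6.04, -5.40 and -5.68 in aggregates, and its mean change of -4.53 was not called (adjusted p = 0.0674). Arntl, whose product drives Dbp, read -1.34, 3.47 and 0 in fresh cells and 2.30, 2.40 and 2.02 in aggregates. Nr1d1, which represses Arntl, read 0, -3.47 and 1.19 in fresh cells. Replicate 2 of the fresh cells was thus low in Dbp and Nr1d1 and high in Arntl, while aggregates lay close together in Dbp and Arntl. In some other genes the fresh arrays disagreed as well. Cyp4a14, a fasting-induced P450, read -4.94, 0 and 2.24 in fresh cells, lowest in replicate 1, and was not called. Fmo2 read 0, 4.77 and -0.42. In aggregates at 4 h Dbp and Cyp4a14 each spread by number much as in fresh cells. Dbp read -0.47, -6.31 and 0.12 there, and Cyp4a14 read -5.82, -0.49 and 1.95. Fmo2 did not (-1.53, -1.49 and -1.50). At 24 h Cyp4a14 kept its order in aggregates (-6.27, -3.24 and -1.38), while Dbp did not. With the replicate number as a block in limma, Dbp and Cyp4a14 were called (adjusted p = 0.012 and 0.000818). The cause of the spread among fresh cells was not tested.

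Markers of other liver cells were examined, since a hepatocyte preparation can hold them. Of 13 markers of Kupffer cells and other macrophages 6 were higher and none lower (median 1.21, centred 2 higher, 2 lower, median 0.50). Their mean change lay between -0.296 and 0.293 in the fresh arrays and was 2.42, 0.606 and 1.63 in aggregate replicates 1, 2 and 3. Cd68 rose alike in all 3, at 8.71, 8.79 and 8.84. The others did not: C1qa read 3.21, 0.0011 and 1.55, C1qb 4.19, 0.62 and 2.92 and C1qc 3.07, 0.094 and 1.99. Marco read 3.12, -0.02 and 2.14 and Lyz2 3.19, 1.17 and 2.13, so replicate 2 was again the lowest. Without that replicate the changes of these genes were 2.58, 3.51, 2.52, 2.62 and 2.98. Without replicate 1 they were 0.98, 1.72, 1.03, 1.05 and 1.97, and none of these 5 was then called (adjusted p from 0.0713 to 0.213). Clec4f (-0.42), Adgre1 (0.16), Csf1r (-0.24), Ptprc (0.023) and Cd163 (-0.48), defining markers of these cells and of leukocytes, had mean changes under 2-fold. They were not called, nor were Vsig4 (0.90) and Cd5l (1.21). Replicate 2 was the lowest aggregate array also in Adgre1 (0.91, -0.21 and 0.40), Csf1r (0.61, -1.41 and -0.86) and Cd5l (2.34, -0.17 and 1.35). How far macrophages moved with Cd14, Lgals3 and Gpnmb, genes they also express, was not tested. Those genes were high in all 3 replicates, and replicate 2 was the lowest in Cd14 and Lgals3: Cd14 read 8.73, 8.29 and 9.34, Lgals3 11.07, 9.81 and 11.21 and Gpnmb 5.60, 5.70 and 6.24. The low replicate 2 of the C1q genes was not particular to aggregates. In the dish at 24 h C1qa read 1.70, 4.05e-05 and 0.97, C1qb 2.43, 0.28 and 2.38 and C1qc 1.91, 0.10 and 1.22. Fresh replicate 2 was also the lowest fresh array in these genes (-0.64, -0.79 and -0.11). Against the dish, 0 of the 13 markers were higher in aggregates and 1 was lower.

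**Figure D3:**
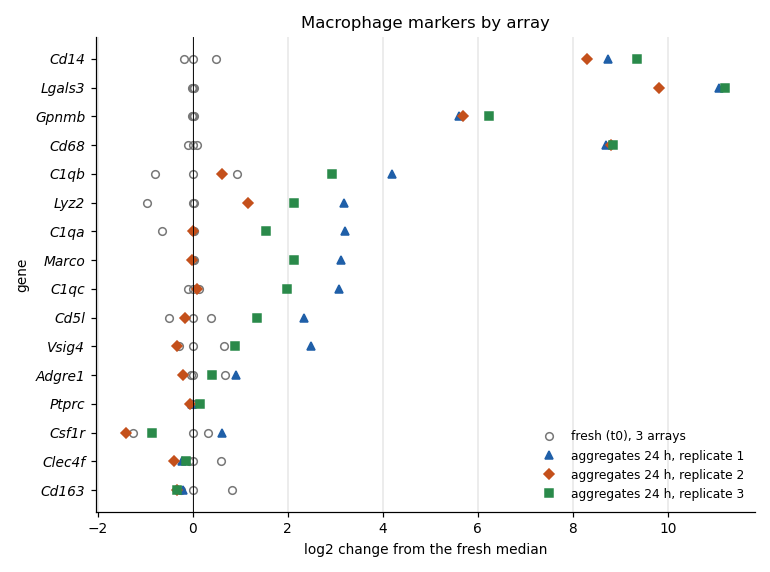
Log2 change from the fresh median (x axis) of the 13 measured macrophage markers and of Cd14, Lgals3 and Gpnmb (y axis), with fresh arrays as grey circles and the 3 aggregate replicates as separate symbols. In C1qa, C1qb, C1qc, Marco and Lyz2 replicate 2 lies nearest to the fresh arrays, while Cd68, Cd14, Lgals3 and Gpnmb are high in all 3 replicates.

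The mean of the endothelial markers was -1.04 to -0.59 in aggregates and -0.23 to 0.39 in fresh cells, so the groups did not overlap. Of 10 endothelial markers 3 were lower (centred 5), Clec4g (-3.87), Dnase1l3 (-2.16) and Fcgr2b (-1.14), and Stab2 (-0.85), Ptprb (-0.69), Eng (-0.13), Oit3 (-0.075), Stab1 (-0.071), Lyve1 (-0.038) and Cdh5 (0.36) were not called. None of 6 stellate and fibroblast markers was called (Pdgfrb (-0.083), Des, Ngfr (-0.062), Col1a2 (-0.057), Dcn (0.042), Reln (0.58)). Of the 4 cholangiocyte markers Sox9 was higher, Pkhd1 (-1.91) was lower, and Krt19 and Epcam were not called. Of the blood cell markers only Alas2 (-2.44), of red cell precursors and also a haem enzyme, was lower. Ccl5 (-0.042), Cd74 (-0.51), Cd79b (-0.093), S100a9 (0.091), Gp9 (-0.16), Itga2b (-0.061), Hba-a1 (-0.044) and Pf4 (0.47) were not called. Of 10 hepatocyte markers 3 were lower (Cps1, Tat (-4.33) and Hnf4a) and none higher, or 8 lower when centred. Their mean was -1.44 to -1.19 in aggregates and -0.073 to 0.060 in fresh cells. Alb, Apob (-0.85), Asgr1 (-0.61), Apoa1 (-0.59), Ttr (-0.52), Ahsg (-0.31) and Fgb were not called. Among the reference genes Gusb (1.43) and Ywhaz (1.49) were higher, and Hprt (0.85), Polr2a (0.77), Rplp0 (0.64), Tbp (0.54) and Sdha (-0.79) were not called.

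Of the 297 called genes named in this comparison, 25 were no longer called when 1 of the 6 arrays was left out, because the adjusted p rose above the threshold or the change fell under 2-fold. Without aggregate replicate 1 this held for Bmp4 (-1.02), C1qa (0.98), C1qb (1.72), C1qc (1.03), Cdh1 (0.92), F3 (1.60), Fmo2 (-2.95), Glud1 (-0.97), Hnf4a (-0.95), Ifit3 (-1.81), Lyz2 (1.97), Marco (1.05), Pcx (-0.98), Plaur (0.84), Plod2 (0.56), Ppp1r3b (-1.32), Rdx (-0.96), Srebf2 (1.40) and Tgfbi (-1.53). Each value is the change that remained. Aggregate replicate 2 decided Bmp4 (-0.97), Fmo2 (-2.95), Foxo1 (-0.82), Ifit3 (-2.57), Pcx (-0.99), Tagln (-0.98), Tgfbi (-1.48) and Tns1 (-1.12). Without aggregate replicate 3 the genes were Bmp4 (-1.12), C1qa (1.81), C1qb (2.36), C1qc (1.57), F3 (1.69), Fmo2 (-2.95), Glud1 (-0.96), Hnf4a (-0.99), Ifit3 (-2.42), Marco (1.54), Ppp1r3b (-1.41), Rdx (-0.90), Srebf2 (1.10), Tgfbi (-1.49) and Tns1 (-1.25). Many of these are genes near the 2-fold limit, such as Glud1, Pcx and Rdx, or with a wide spread in 1 group, such as Ifit3 and the C1q genes. Of the fresh arrays, replicate 1 decided C1qa (1.89), C1qc (1.77), Foxo1 (-0.90), Ifit3 (-2.04), Plod2 (1.21), Tagln (-0.91) and Tns1 (-0.89). Fresh replicate 2 decided C1qa (1.57), C1qb (2.11), C1qc (1.65), Cdh1 (0.90), Clock (-0.91), F3 (1.17), Glud1 (-0.96), Hnf4a (-0.89), Lyz2 (2.15), Pcx (-0.96), Plod2 (1.21), Ppp1r3b (-0.77), Tagln (-1.0) and Tns1 (-1.08). Without fresh replicate 3 the genes were Bmp4 (-0.45), C1qa (1.91), C1qb (2.50), C1qc (1.71), Eif2ak3 (0.97), Foxo1 (-0.92), Glud1 (-0.97), Ifit3 (-1.72), Ireb2 (-0.87), Plod2 (1.23), Rdx (-0.79), Srebf2 (0.67) and Tgfbi (-0.59). Leaving out the probe sets of shared sequence ended 19 calls, those of Aldh18a1 (0.95), Aldoc (-0.24), Angptl4 (-0.35), C1qc (1.71), Cdc20 (-0.19), Cldn1 (-0.12), Csnk1d (0.96), Dnaja1 (-0.94), Dsg2 (0.89), Gadd45b (-0.92), Ifit3 (-2.27), Irf3 (0.41), Mcm10 (-1.15), Mcm3 (0.92), Parva (0.82), Pck2 (0.11), Rdx (-0.33), Tgfbi (-0.68) and Tmsb10 (-0.15). Averaging the probe sets of a gene ended 34 of the 297 calls, those of Aldoc (-0.93), Cldn1 (-0.87), Clock (-0.45), Cs (0.83), Csnk1d (0.92), Dnaja1 (-0.76), Dsg2 (0.96), Eif2ak3 (0.70), Eif4e (0.97), Fcgr2b (-0.66), Fmo2 (-1.98), Foxo1 (-0.71), Gclm (-0.52), Glud1 (-0.75), Glul (-0.70), Higd1a (-0.76), Idh3a (-0.93), Il1rn (0.89), Il6st (0.68), Irf3 (0.56), Lss (-0.76), Map1lc3b (-0.83), Marco (0.89), Masp1 (0.43), Mt1 (-0.37), Parva (-0.65), Psmd11 (0.66), Rdx (-0.57), Scp2 (-0.83), Slc11a2 (0.89), Slc38a2 (-0.58), Srebf2 (0.45), Tgfbr2 (0.99) and Tns1 (-0.90).

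The aggregates at 4 h show when the changes came. Between 4 h and 24 h 1772 genes (14.3%) rose and 1212 (9.76%) fell. Both times are set against the same fresh arrays below, so only the difference between 24 h and 4 h was tested. Serine synthesis was already up at 4 h: Psat1 stood at 8.81 then and 8.53 at 24 h, and Phgdh at 6.12 and 7.41. In neither was the difference called. Klf6 (8.49, then 7.67) and Fgf21 (6.24, then 5.83) were of the same kind.

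A second set appeared late. Sox4 stood at 0.20 after 4 h and 7.45 after 24 h, a difference of 7.26 ± 0.45, adjusted p = 1.55e-07. Cyp1a1 went from -0.042 to 6.35 (6.40 ± 0.42, adjusted p = 2.84e-07). The other large late rises were in Vim (6.58), the growth cone protein Dpysl2 (6.66), the desaturase-like Fads3 (6.10) and the arginine methyltransferase Prmt2 (6.08). Cps1, by contrast, fell: it was at -0.12 after 4 h and -4.46 after 24 h, and the largest late falls were in Pck1 (-9.34), Upp2 (-9.02), Serpina4-ps1 (-8.02), Ppp1r3c (-7.65), Hsd3b5 (-7.40) and Hal (-7.17). Of the 41 amino acid catabolism genes 37 fell between 4 h and 24 h.

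Further genes peaked at 4 h. The interleukin-1 receptor antagonist Il1rn stood at 8.29 after 4 h and 2.42 after 24 h (-5.86 ± 0.54, adjusted p = 4.02e-06). Eif4e fell from 6.59 to 2.89 (-3.70 ± 0.36, adjusted p = 6.02e-06) and Gata6 from 6.20 to 1.85 (-4.35 ± 0.51, adjusted p = 2.88e-05). The phosphatase gene Dusp5 went from 4.05 back to 0.28 (-3.77 ± 0.20, adjusted p = 5.69e-08). These 4 were chosen after their values had been seen.

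**Figure D4:**
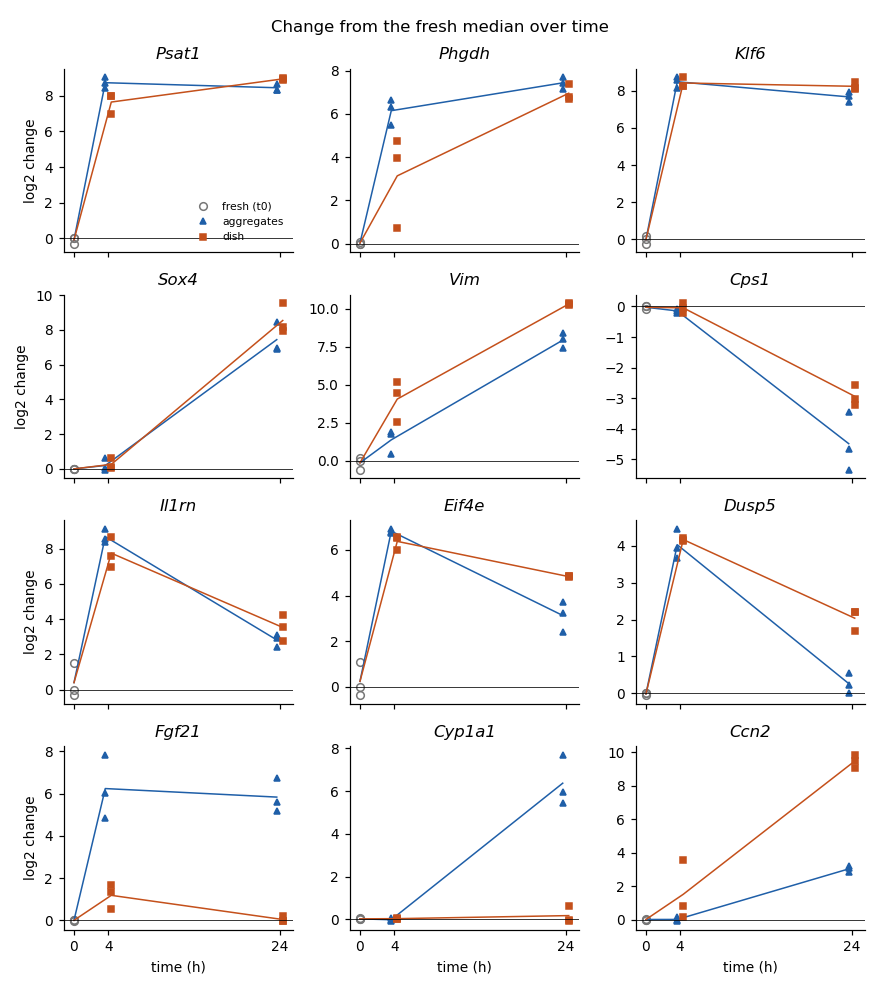
Log2 change from the fresh median (y axis) at 0, 4 and 24 h (x axis) of 12 genes, one panel each, with aggregates as triangles joined by their means and dish cultures as squares joined by theirs, one point per array. Psat1, Phgdh and Klf6 are high at both times, Sox4, Vim and Cps1 change after 4 h, Il1rn, Eif4e and Dusp5 peak at 4 h, and Fgf21, Cyp1a1 and Ccn2 differ between the vessels at 24 h.

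Whether these changes belong to aggregates was asked by setting them against dish cultures at the same time. Between the vessels at 24 h 482 genes (3.88%) were higher in aggregates and 449 (3.61%) lower, against the 2465 and 1474 that separated aggregates from fresh cells. The end-to-end control of Actb differed by 0.21 between the vessels (exact p = 0.1), and its part in the results was not tested. In amino acid catabolism 8 of 41 were higher and 7 lower in aggregates, in the integrated stress response 2 and 2 of 31, and in ribosome biogenesis 0 and 1 of 35. Among the 48 function lists, liver transcription factors had the most genes higher in aggregates, 12 of 28 with 0 lower. Hnf4a was among them at 1.37 ± 0.23 (adjusted p = 0.0015) and Cebpa at 1.37 ± 0.18 (adjusted p = 0.000276). Genes of glycolysis and hypoxia had the most genes lower in aggregates, 11 of 29 with 0 higher.

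The 6 furthest above dish cultures were Cyp1a1 (6.20), Fgf21, the organic anion carrier Slc17a3 (5.30), the bile acid conjugating enzyme Baat (4.43), Lepr (4.38) and Gm19950 (4.28). In Baat the dish lost more: it stood at -1.62 from fresh cells in aggregates and at -6.04 in the dish. Cyp1a1, Fgf21 and Lepr stood near the fresh level in the dish at 24 h (0.15, 0.038 and -0.084). At 4 h Fgf21 had read 1.34, 1.68 and 0.53 in the dish. The 6 furthest below were Ccn2 (-6.45), the collagen hydroxylase Plod2 (-5.92), hexokinase Hk1 (-5.77), Lce1d (-5.75), Serpinb9g (-5.62) and the muscle actin Acta1 (-5.44). Hk1 (0.11) and Acta1 (-0.074) had not moved from fresh cells in aggregates beyond 2-fold, and stood at 5.88 and 5.36 in the dish. Other liver enzymes went the opposite way to Baat. Pck1 was lower in aggregates than in the dish, with a difference of -4.26 ± 0.35 (adjusted p = 9.05e-06). So were Hsd3b5 (-4.13), Akr1d1 (-2.85) and Hal (-2.24), among others.

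**Figure D5:**
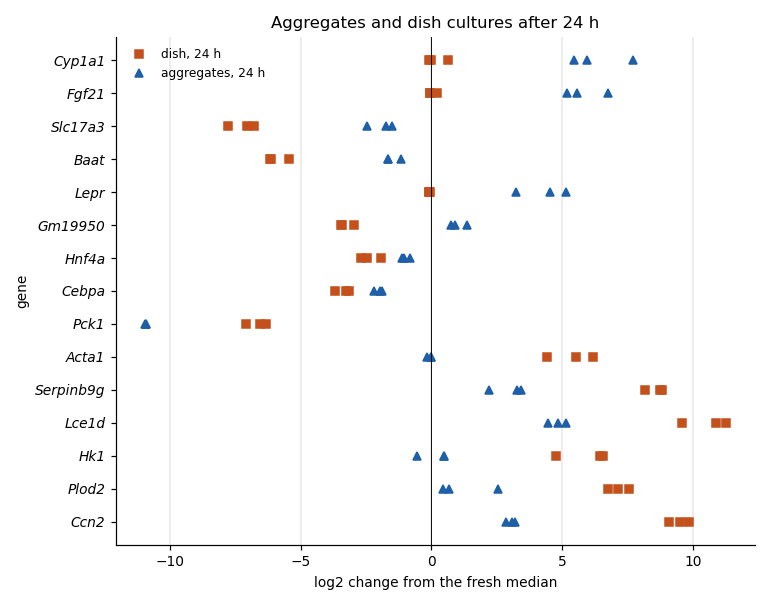
Log2 change from the fresh median (x axis) after 24 h in the 12 genes with the largest differences between the vessels and in Pck1, Hnf4a and Cebpa (y axis), with aggregates as triangles and dish cultures as squares, one point per array. Cyp1a1, Fgf21 and Lepr are high in aggregates and near 0 in the dish, and Ccn2, Hk1 and Acta1 are far higher in the dish.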

How the data were processed

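RNA of mouse hepatocytes was hybridised to Affymetrix arrays, 15 arrays in 5 groups of 3. The deposited values are log2 GCRMA signals per the submitters' processing notes, with the version not given in the sources used here. GCRMA uses the sequence of each probe to estimate its background, equalises the arrays and combines the probes of a set. The log base is taken from GCRMA's scale. From the values, the authors subtracted the median of the 3 fresh arrays in every probe set (it is 0 within 1e-06), so no absolute level remains. Scanner files were not analysed here, and array number and the lost level limit the precision.

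Of 45101 probe sets, 64 were controls, 34945 carried 1 gene symbol, 932 several and 9160 none; 34741 had a symbol in the RefSeq table. Left out were 19608 background probe sets, which correlated above 0.8 with the array medians of the least variable share (0.2) of probe sets and had an SD below 0.5. A gene was represented by its probe set with the largest SD over all arrays, which favours larger changes in the 5611 genes with several. Probe sets of shared sequence are those with names ending in _x_at, _s_at or _a_at. These endings were not told apart, so a call lost without them does not show a signal of other genes. Groups were compared in limma 3.58.1 (R 4.3.3) with lmFit, contrasts.fit and eBayes over all 15 arrays (10 residual degrees of freedom, no block), with Benjamini-Hochberg adjustment over 12423 genes; a call needed an adjusted p below 0.05 and a 2-fold change. The code was tested on simulated data.

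Named were the 15 largest changes each way (6 for the other comparisons) among called genes without overlap between groups and without probe sets called in opposite directions, the 3 largest called members each way of 58 gene lists, all members of lists with 14 or fewer measured, and Alb, Hnf4a, Cebpa, Cyp7a1, Cyp3a11, Actb and Vim. Other list members are examples outside that rule. The comparison and the lists were chosen with earlier results of these data known. Alternatives changed the filter, the probe sets, the arrays in the fit, the block, the centring, the test, the variance model and the array weights, and left out each replicate; the same alternatives for genes of the other comparisons, and the macrophage markers without aggregate replicate 2, were chosen after seeing the data. Promoters are RefSeq sequence on GRCm38.p6.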

Additional observations from a re-analysis of the deposited data

Results flagged for a closer look

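The change from fresh cells after 24 h differed between aggregates and dish cultures in 76 of the 297 named genes called against fresh cells. The test was limma's of the difference between the vessels (adjusted p below 0.05 and at least 2-fold, 3 arrays against 3). Of all 12423 genes 3.88% were higher in aggregates than in the dish and 3.61% were lower. Some of the 76 were named for their difference between the vessels, so the count does not measure how common such differences were. The values that follow are log2 differences, aggregates minus dish. Both changes share the fresh arrays, and only their difference was tested.

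Genes that rose in aggregates and stood lower there than in the dish were Ccn2 (-6.45), Plod2 (-5.92), Lce1d (-5.75), Serpinb9g (-5.62), Cldn4 (-4.31), Nupr1 (-4.02), Anxa3 (-3.60), S100a6 (-3.42), Vim (-2.38), Plaur (-2.30), Klf4 (-2.16), Oasl1 (-2.01), Lims1 (-1.85), Prelid2 (-1.73), Eif4e (-1.70), Hilpda (-1.50), Pkm (-1.49), Fads3 (-1.43), Tmsb10 (-1.41), Csnk1e (-1.31), Ptpn14 (-1.27), Pgm2 (-1.23), Cd68 (-1.21), Hmox1 (-1.13) and Csnk1d (-1.03). The rise of Tmsb10 and Csnk1d was not called without probe sets of shared sequence. Genes that fell in aggregates and stood lower still than in the dish were Pck1 (-4.26), Hsd3b5 (-4.13), Serpina4-ps1 (-3.0), Ifit1 (-2.98), Akr1d1 (-2.85), Akr1c6 (-2.47), Higd1a (-2.44), Ppp1r3c (-2.43), Slco1b2 (-2.37), Hal (-2.24), Sult2a8 (-2.11), Upp2 (-1.98), Ces1d (-1.83), Cps1 (-1.55), Klkb1 (-1.35), Oat (-1.33), Serpina6 (-1.24), Ccl9 (-1.15) and Igf1 (-1.02).

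Genes that rose in aggregates and stood higher there than in the dish were Irf3 (1.31), Afp (1.64), Rps24 (2.05), Nqo1 (2.10), Fabp4 (2.27), Abcc4 (2.62), Tkfc (2.90), Gstm3 (3.47), Cbr3 (3.70), Lepr (4.38), Fgf21 (5.80) and Cyp1a1 (6.20). Genes that fell in aggregates and stood higher there than in the dish were Col18a1 (1.02), Slc2a2 (1.10), Fos (1.20), Apon (1.27), Fcgr2b (1.32), Glul (1.35), Cebpa (1.37), Hnf4a (1.37), Inhbc (1.67), Gjb1 (1.68), Slc37a4 (1.75), G6pc (1.86), Gys2 (2.31), Mgll (2.54), Hlf (2.60), Cxcl12 (2.68), Mt1 (2.68), Klf15 (3.47), Baat (4.43) and Slc17a3 (5.30). Probe sets of Mt1 were called in opposite directions against fresh cells, so its direction is uncertain. Replicate-level outliers were not tested, since every group has 3 arrays.

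A signal was also present in probe sets outside the gene-level comparison. Of 3333 probe sets off the background with several or no gene symbols, 281 were higher and 194 lower in aggregates than in fresh cells by the same rule, 14.3% in all. They were not named here.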

How the results depend on the processing

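The direction of many changes depended on the centring. With the arrays centred on the 7 reference genes the median of all genes moved from 0.013 to -0.691 against fresh cells, from -0.001 to 0.223 against the dish and from 0.042 to -0.246 against 4 h. The genes called were then 1105 higher and 3151 lower against fresh cells (26% higher, in place of 62.6%), 845 higher and 341 lower against the dish (71.2%, in place of 51.8%) and 1147 higher and 1643 lower against 4 h (41.1%, in place of 59.4%). Against fresh cells 24 named genes lost their call under that centring and 26 gained one. Lost were the calls of Anxa4, Atf4, C1qa, C1qb, C1qc, Cdh1, Cs, Csnk1d, Eif2ak3, F3, Gusb and Il6st. So were those of Irf3, Marco, Me1, Oasl1, Plaur, Plod2, Psmb5, Slc30a1, Srebf2, Tgfbr2, Tkfc and Ywhaz. Testing for a change beyond 2-fold (limma's treat) left 1870 genes against fresh cells (1083 higher, 787 lower), 186 against the dish (77 and 109) and 1065 against 4 h (504 and 561), and 75 named genes lost their call, as this test asks for more. The other settings kept the counts within 1.5 times of the main ones, and without 1 array they ran from 3712 to 3962 against fresh cells (2304 to 2511 higher, 1362 to 1501 lower), from 726 to 979 against the dish (374 to 540 higher, 352 to 499 lower) and from 2725 to 2943 against 4 h (1559 to 1763 higher, 1137 to 1203 lower). Of 5662 values of 382 named genes under the alternatives, 5360 kept direction and call, 253 lost the call, 46 gained one and 3 turned: Masp1 to 0.43 with the mean of its probe sets, and Parva to 0.82 and Tmsb10 to -0.15 without probe sets of shared sequence. The cause was not tested. Of 297 called genes 207 kept their call throughout. Of 870 values of the medians of 58 lists 685 moved by less than the spread between replicates and 185 by more.

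The labels do not say that replicate numbers pair the samples, and not every pair of arrays deviated together: deviations of same-numbered arrays of aggregates and fresh cells correlated at 0.035, 0.034 and 0.043, those of aggregates and dish at 0.132, 0.083 and 0.364, and those of aggregates at 24 h and 4 h at 0.069, 0.128 and 0.227. Each of the 3 aggregate arrays still correlated best with the array of its own number in all 3 comparisons, a hint from the data and not from the design. With the replicate number as a block 3995 genes were called against fresh cells, 1016 against the dish and 3057 against 4 h, and among named genes none was lost against fresh cells and 4 calls were gained: Cd5l (adjusted p = 0.00312), Cyp4a14 (0.000818), Dbp (0.012) and Vldlr (0.00699). The values hold no signal over background, so a gene at the floor of the arrays in 1 group cannot be told from one measured there.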
